A study of Mus musculus with 6 samples.

Results

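Serotonin receptor transcripts were examined in the amygdala of mice fed a zinc diet and of mice fed a control diet. The set held 9 receptor genes, Htr1a, Htr1b, Htr2a, Htr2c, Htr3a, Htr4, Htr5a, Htr6 and Htr7, and every probe set whose platform annotation named 1 of them as its single gene symbol was taken. This gave 14 probe sets for 8 of the 9 genes, of the 34958 single-symbol probe sets on the array. Htr2a had no probe set under its symbol in that annotation and was not analysed here. The data were 6 arrays from 6 male mice of the inbred strain 129S1/SvImJ (S1), aged 8 to 10 weeks, 1 array per mouse. The zinc diet group was replicates 3, 7 and 10 and the control diet group was replicates 1, 9 and 11, as numbered in the labels. The amygdala of both groups was dissected 2 h after fear extinction training, so no untrained mice were compared. The labels write the diet as "Zn" and "ZnR" and give no zinc content, so the direction of the zinc difference is not assumed here.

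Serotonin reaches the amygdala from neurons of the raphe nuclei in the brainstem and acts there on receptors that differ in what they do to the cell. The 5-HT1 and 5-HT5 receptors couple to Gi/o proteins, which lower cyclic AMP. The 5-HT2 receptors couple to Gq and phospholipase C, the 5-HT4, 5-HT6 and 5-HT7 receptors couple to Gs, which raises cyclic AMP, and the 5-HT3 receptor is a cation channel. Serotonin signalling in the amygdala is known for its part in fear and anxiety.

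Htr1b and Htr5a were the receptors above the level filter in which every zinc diet mouse exceeded every control mouse, by 1.43-fold on average for Htr1b and 1.18-fold for Htr5a. Htr4 was 1.41-fold higher on average with overlapping diets, and Htr1a, Htr2c and Htr7 differed by less. No receptor probe set passed an adjusted p of 0.05 in limma, where 0 of all 22877 probe sets tested did, and the smallest adjusted p of any of them was 0.076. At an unadjusted p under 0.05 there were 2 of the 7 receptor probe sets tested, both higher in the zinc diet mice. Of all probe sets tested, 6.38% fell under that p, 3.63% with a higher level in the zinc diet mice. This count was 1 without zinc diet replicate 7 or without control diet replicate 1, and 4 without zinc diet replicate 10. The diets did not overlap in 2 of the 7, both higher in the zinc diet mice. Over all probe sets tested they did not overlap in 12%, and in 6.66% with the zinc diet mice higher. The median log2 change of the 7 was 0.091, against 0.0091 over all probe sets tested, and 5 of the 7 were higher in the zinc diet mice, as were 53% of all probe sets.

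Receptor levels were read against a log2 level of 4, which lies close to the median of each array (4.04 to 4.09). Of the 14 probe sets, 7 had a mean of at least 4 over the 6 mice and were tested, 50% of them, and 50.8% of all probe sets did so. These 7 lay above 4 in every mouse and belonged to Htr1a, Htr1b, Htr2c, Htr4, Htr5a and Htr7, with 2 of them for Htr2c. The probe sets nearest to the line were that of Htr5a, with a mean of 5.51, and that of Htr3a, with a mean of 3.69. The values of the 7 probe sets under the line ran from 2.20 to 3.95, and they were the only ones for Htr3a and Htr6. Whether a level under 4 was signal or background was not tested, as there was no detection call. These values do not show that a receptor is absent. Levels of different probe sets are not comparable with each other, since each has its own probes.

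**Figure D1:**
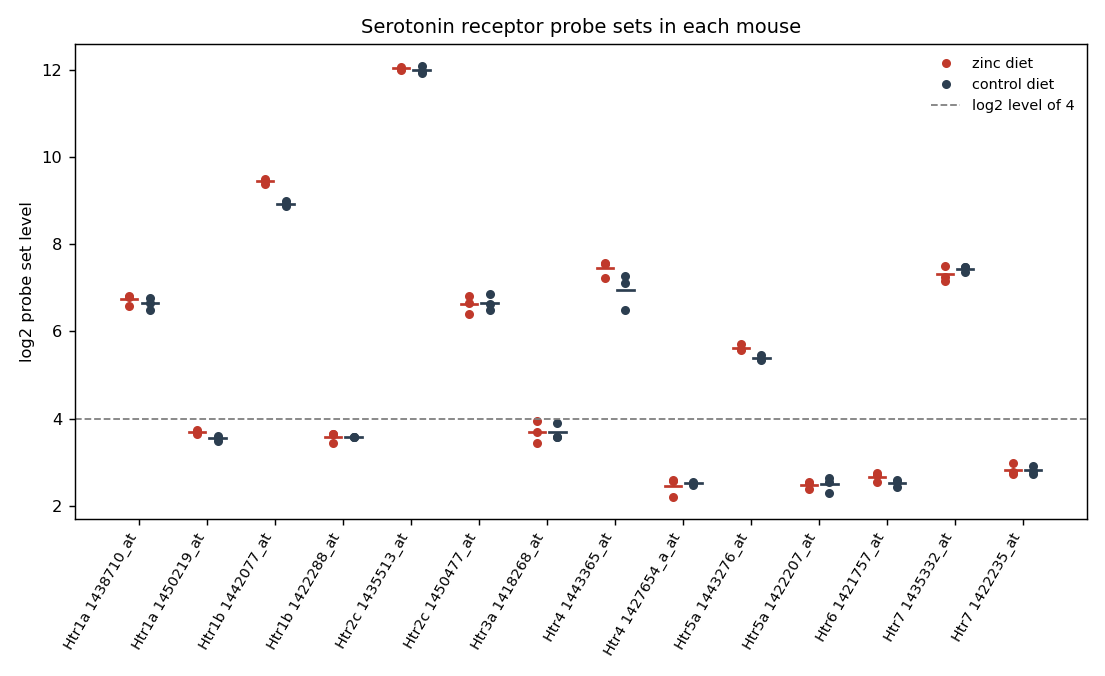
Log2 level of each of the 14 serotonin receptor probe sets (vertical axis) in each mouse, with zinc diet mice in red left of control diet mice in dark blue. Points are mice, short lines are group means (n = 3 each) and the dashed line marks a log2 level of 4. The 7 probe sets above the line lie above it in all 6 mice, and the Htr1b probe set 1442077_at shows the diets apart.

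The accession behind a probe set went with its side of the line. Of the 6 probe sets annotated with an expressed sequence tag (accessions starting BB or BQ), all 6 lay above 4, and of the 8 annotated with a messenger RNA record (RefSeq, or Y09587 for Htr4), 1 did, that of Htr2c. For Htr1a, Htr1b, Htr4, Htr5a and Htr7 the probe set above the line and the one under it came from these different kinds of record. Over all single-symbol probe sets with a RefSeq accession, 54.1% lay at or above 4, and over those with another GenBank accession 56.5% did. This split is not the one used for the members. Its second group mixes expressed sequence tags with messenger RNA records such as Y09587. The position of each probe set along its transcript was not analysed here.

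Among the receptors coupled to Gi/o, Htr1b encodes the 5-HT1B receptor, known as a terminal receptor that limits transmitter release. Its probe set 1442077_at had log2 levels of 9.51, 9.46 and 9.39 in zinc diet replicates 3, 7 and 10, against 8.94, 8.87 and 9.002 in control diet replicates 1, 9 and 11. The lowest zinc diet mouse was above the highest control mouse, and the spread within each diet was small, at 9.45 ± 0.064 in zinc diet mice and 8.94 ± 0.065 in controls (SD, n = 3 each). The log2 change was 0.52 ± 0.076 (SE, 95% interval 0.33 to 0.70), with an unadjusted p of 3.1e-04, the 30th smallest of the probe sets tested, and a limma adjusted p of 0.23. Leaving out any 1 mouse kept the change between 0.48 and 0.55.

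The second Htr1b probe set, 1422288_at, did not show the difference. It lay under the line in every mouse, at 3.44, 3.65 and 3.63 in the zinc diet mice, against 3.57, 3.58 and 3.57 in the control mice, a log2 change of 0.00053 ± 0.086 (SE). Both groups overlapped. At such levels the probe set could be reading background, but without a detection call this was not tested. With the 2 probe sets averaged, the log2 change of Htr1b was 0.26 (limma adjusted p = 0.27 over gene means).

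Htr1a encodes the 5-HT1A receptor, which is known both as an autoreceptor of raphe neurons and as a receptor on their target cells. Its probe set 1438710_at stood at 6.82, 6.59 and 6.80 in zinc diet replicates 3, 7 and 10, against 6.50, 6.66 and 6.77 in control diet replicates 1, 9 and 11. The diets overlapped, and the log2 change of 0.091 ± 0.10 (SE, limma adjusted p = 0.92) had a 95% interval of -0.16 to 0.34. Its second probe set, 1450219_at, lay under 4 throughout, at 3.65 to 3.73 in zinc diet mice and 3.49 to 3.61 in controls. The zinc diet mice were above the control mice there by 0.14 ± 0.076 (SE, limma adjusted p = 0.93 without the level filter), a separation in that direction that 5.27% of all 45037 probe sets showed.

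Htr5a encodes the 5-HT5A receptor. Its probe set 1443276_at had levels of 5.57, 5.72 and 5.59 in zinc diet replicates 3, 7 and 10, against 5.34, 5.37 and 5.47 in control diet replicates 1, 9 and 11. The diets did not overlap, but the nearest mice, zinc diet replicate 3 and control diet replicate 11, were closer together than the highest and lowest mouse of either diet. The log2 change was 0.24 ± 0.079 (SE, 95% interval 0.047 to 0.43), with an unadjusted p of 0.021 and a limma adjusted p of 0.72. The other Htr5a probe set, 1422207_at, lay between 2.29 and 2.64 in all mice, with a change of -0.0078 ± 0.11 (SE).

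The Gq-coupled receptor gene Htr2c, which encodes the 5-HT2C receptor, was the only member with both probe sets above the line. Probe set 1435513_at stood at 12.08, 12.02 and 12.04 in zinc diet replicates 3, 7 and 10, against 12.11, 11.95 and 11.99 in control diet replicates 1, 9 and 11. The 6 mice were close together and the diets overlapped, with a log2 change of 0.030 ± 0.076 (SE, 95% interval -0.15 to 0.21, limma adjusted p = 0.97). Probe set 1450477_at ranged from 6.40 to 6.82 in zinc diet mice and from 6.50 to 6.85 in controls, a change of -0.037 ± 0.14 (SE, 95% interval -0.37 to 0.29).

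Htr2c is known for a high level in the epithelium of the choroid plexus, and control diet replicate 9 stood apart in markers of that tissue. The mean of the 5 choroid plexus markers tested, of 13 on the array, was 5.52 to 6.31 in the zinc diet mice and 5.87 to 8.83 in the control mice, with the highest value in control diet replicate 9. Ttr, the transthyretin gene, had a log2 level of 14.7 in that mouse, and Kcnj13 had 7.56. All 13 markers on the array were highest in that mouse, also the 8 whose mean over the 6 mice lay under 4, such as Calml4 at 7.19 and Folr1 at 5.63 in it. On probe set 1435513_at, Htr2c was lower in that mouse than in the other 5, and on probe set 1450477_at it was higher than in the other 5. Without that mouse the change of Htr2c was -0.0046 on 1435513_at and 0.060 on 1450477_at, and that of Htr1b was 0.48.

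**Figure D2:**
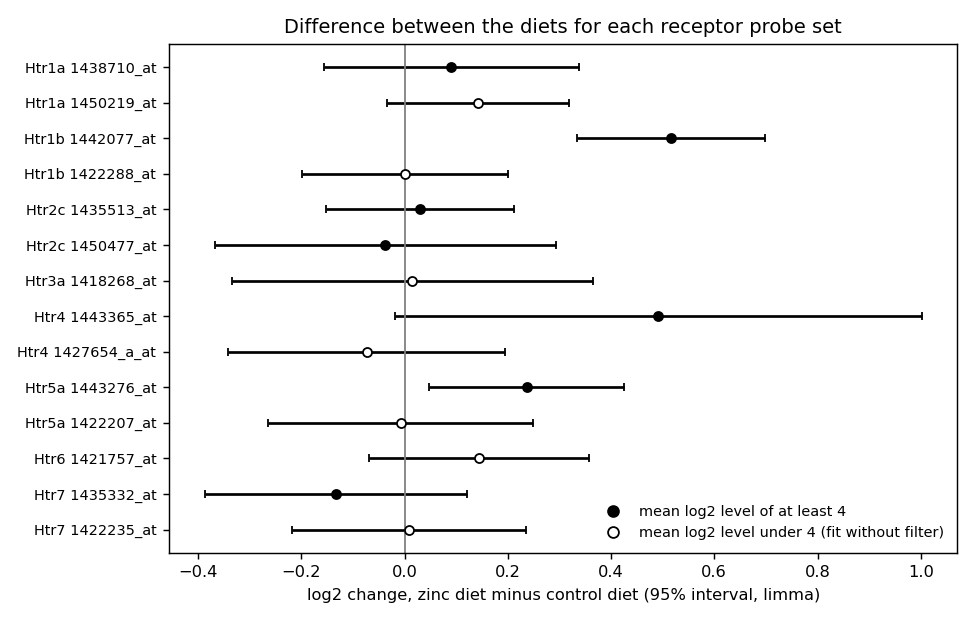
Log2 change, zinc diet minus control diet (horizontal axis), of each receptor probe set with its 95% interval from limma (n = 3 mice per diet). Filled points are probe sets with a mean level of at least 4 and open points those under it, taken from a fit without the level filter. The intervals of Htr1b 1442077_at and Htr5a 1443276_at lie above 0, and the widest is that of Htr4 1443365_at, from -0.019 to 1.002.

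Among the Gs-coupled receptors, Htr4 varied most. Its probe set 1443365_at had levels of 7.58, 7.55 and 7.23 in zinc diet replicates 3, 7 and 10, against 6.49, 7.28 and 7.11 in control diet replicates 1, 9 and 11. Control diet replicate 1 was low and the lowest zinc diet mouse lay below control diet replicate 9. The log2 change was 0.49 ± 0.21 (SE, limma adjusted p = 0.79), and it was 0.26 without control diet replicate 1. A second Htr4 probe set, 1427654_a_at, ran from 2.20 to 2.58 in all mice.

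Htr7, which encodes the 5-HT7 receptor, had the most negative change of the members tested. Its probe set 1435332_at stood at 7.17, 7.25 and 7.51 in zinc diet replicates 3, 7 and 10, against 7.49, 7.36 and 7.48 in control diet replicates 1, 9 and 11. Zinc diet replicate 10 was the highest of the 6 mice and the other zinc diet mice were the lowest, with a log2 change of -0.13 ± 0.11 (SE, 95% interval -0.39 to 0.12, limma adjusted p = 0.88). Without zinc diet replicate 10 it was -0.23. The second Htr7 probe set, 1422235_at, ran from 2.73 to 2.98 in all mice.

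Htr6 and the channel subunit gene Htr3a had no probe set above the line. Htr6, whose receptor is known for its level in striatum, was at 2.54, 2.76 and 2.71 in zinc diet replicates 3, 7 and 10, against 2.59, 2.55 and 2.43 in control diet replicates 1, 9 and 11. Htr3a was at 3.44, 3.70 and 3.95 in zinc diet replicates 3, 7 and 10, against 3.57, 3.58 and 3.90 in control diet replicates 1, 9 and 11. The diets overlapped in both, with changes of 0.14 ± 0.092 and 0.015 ± 0.15 (SE). The Htr3a subunit marks a class of interneurons, and all 10 markers written for those cells, Vip, Cck and Reln among them, passed the level filter. Their mean was 9.88 to 9.93 in zinc diet mice and 9.86 to 10.00 in controls, with 5 of the 10 higher and 5 lower. Lamp5 alone fell under an unadjusted p of 0.05, as 6.38% of all probe sets tested did. It differed by 0.20 ± 0.070 (SE, limma adjusted p = 0.73) and was higher in every zinc diet mouse. Reln was lower in every zinc diet mouse, by -0.12 ± 0.072 (SE, limma adjusted p = 0.85). Of all probe sets tested, 12% did not overlap in either direction. The largest change was that of Calb2, at -0.54 ± 0.23 (SE, limma unadjusted p = 0.052) with overlapping diets.

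Markers of striatal projection neurons moved with the diet, and Htr1b and Htr4 are known for their levels in those neurons. All 16 striatal markers tested, of 18 written, were higher in the zinc diet mice, 14 of them with no overlap of the diets. Of all probe sets tested, 53% were higher in the zinc diet mice, and 6.66% were so without overlap. Like the other lists, this one was chosen with earlier results of these data known. Its counts therefore describe the list and are not independent evidence. The mean of the striatal markers was 9.34 to 9.68 in zinc diet mice and 8.10 to 8.47 in controls. Rgs9, a regulator of G protein signalling, had the smallest p of these markers, with a log2 change of 1.80 ± 0.14 (SE, limma adjusted p = 0.076). The striatal mean was highest in zinc diet replicate 7, with replicates 3 and 10 level below it, and Htr1b was highest in zinc diet replicate 3. Among the control mice, both were highest in control diet replicate 11, and the lowest was control diet replicate 1 for the striatal mean and control diet replicate 9 for Htr1b. Control diet replicate 1 was lowest for Htr4, Htr5a and the striatal mean. The part of striatal cells in the Htr1b, Htr4 and Htr5a values was not tested. In tissue samples of this kind, a different number of cells of a type and a different amount of RNA per cell cannot be told apart.

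**Figure D3:**
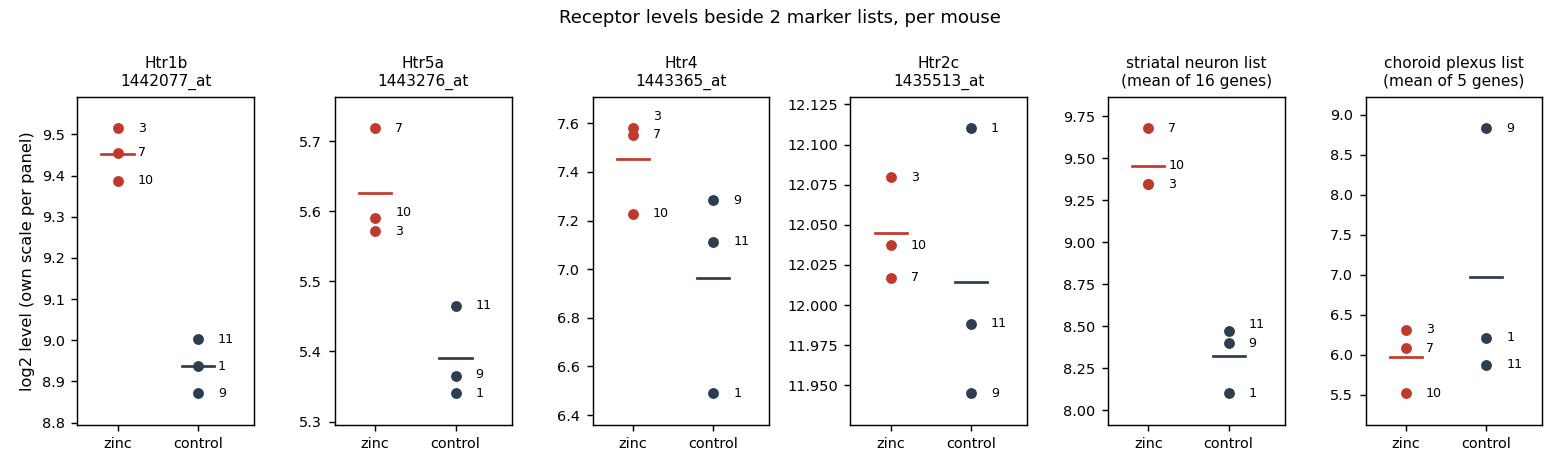
Log2 level per mouse of 4 receptor probe sets, and the mean log2 level of the striatal neuron markers (16 genes) and the choroid plexus markers (5 genes), each panel on its own vertical scale. Zinc diet mice are red and on the left, control diet mice are dark blue and on the right, numbers are replicate numbers and lines are group means (n = 3 each). Htr1b, Htr5a and the striatal list separate the diets, while control diet replicate 9 stands apart in the choroid plexus list.

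The labelled tissue was checked against its markers. All 6 excitatory neuron markers of the amygdala and all 6 central amygdala markers passed the level filter. The excitatory markers also separated the diets, at 9.55 to 9.79 in zinc diet mice and 9.38 to 9.41 in controls (exact permutation p = 0.1, two-sided, the smallest that 3 mice against 3 allow), but their members went both ways. Rspo2 and Neurod6 were higher in every zinc diet mouse, by 0.77 ± 0.17 and 0.67 ± 0.17 (SE), Neurod1 was lower in every zinc diet mouse by -0.36 ± 0.10 (SE), and the glutamate transporter genes Slc17a7 and Slc17a6 differed by -0.080 ± 0.12 and 0.0090 ± 0.13 (SE). The mean of the 3 intercalated cell markers tested also separated the diets, at 10.47 to 10.63 against 9.92 to 10.15 (exact permutation p = 0.1). Foxp2 (0.86 ± 0.12 SE) and Meis2 (0.47 ± 0.099 SE), which is also in the striatal list, were higher in every zinc diet mouse. Tshz1 differed by 0.13 ± 0.084 (SE) with overlapping diets. Oprm1, with a mean under 4, differed by -0.11 ± 0.15 (SE, without the level filter). All 8 myelin markers tested were higher on average in the zinc diet mice, against 53% of all probe sets tested. Their median log2 change was 0.41, with no overlap for Mal (0.44 ± 0.20 SE). The mean of the myelin markers overlapped between the diets, at 9.84 to 10.53 in zinc diet mice and 9.36 to 9.98 in controls. The mean of the central amygdala markers overlapped, at 8.28 to 8.45 in zinc diet mice and 8.03 to 8.44 in controls, with 4 higher and 2 lower. Of these, Cyp26b1 was higher without overlap (0.33 ± 0.10 SE) and Crh with overlap (0.43 ± 0.17 SE). Markers of neighbouring tissue differed between mice. Of the 8 hippocampal markers 2 were tested, Pou3f1, higher in every zinc diet mouse by 0.82 ± 0.20 (SE), and Prox1, at -0.014 ± 0.28 (SE). The hypothalamic peptide gene Avp stood at 9.84, 9.14 and 4.73 in zinc diet replicates 3, 7 and 10, against 10.96, 4.38 and 5.63 in control diet replicates 1, 9 and 11, and Pmch was at 9.004 in zinc diet replicate 7 and at 2.84 to 4.005 in the other 5. The mice high in Avp were of both diets, and the only mouse high in Pmch was a zinc diet mouse. Of the 6 cortex and claustrum markers tested, 5 were higher in the zinc diet mice, as were 53% of all probe sets tested. Nr4a2 (0.40 ± 0.099 SE) and Tle4 (0.24 ± 0.083 SE) were higher without overlap, as were 6.66% of all probe sets tested. The part of these tissues in the receptor values was not tested.

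Of the other serotonin receptor genes of the mouse, Htr1f alone had a best probe set above the line. Htr1f encodes the Gi/o-coupled 5-HT1F receptor, and its probe set 1440422_at stood at 7.19, 7.15 and 7.11 in zinc diet replicates 3, 7 and 10, against 6.98, 7.15 and 5.66 in control diet replicates 1, 9 and 11. Control diet replicate 11 was far below the other 5 mice, and the log2 change of 0.55 ± 0.37 (SE, limma adjusted p = 0.86) was 0.085 without it. Its other tested probe set, 1450548_at, differed by 0.29 ± 0.21 (SE), with control diet replicate 11 inside the range of the other control mice. Htr1d, Htr2b, Htr3b and Htr5b had means under 4 on every probe set. The largest of their differences was that of Htr1d on 1440166_x_at, whose design can match related transcripts, at 3.65 to 3.99 in zinc diet mice and 3.16 to 3.59 in controls (0.51 ± 0.14 SE, limma adjusted p = 0.74 without the level filter).

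Of 5 serotonin neuron markers written, the 4 on the array had means under 4, and Fev had no probe set under its symbol. Tph2, which encodes the rate-limiting enzyme of serotonin synthesis in neurons, ran from 2.16 to 2.45 over the 6 mice, and Slc6a4, the serotonin transporter gene, from 2.67 to 2.86. Lmx1b also had a mean under 4, as did Tph1, a synthesis gene outside that marker list. Slc18a2, which encodes the vesicular monoamine transporter, had a mean of 3.97, at 4.49, 4.14 and 3.99 in zinc diet replicates 3, 7 and 10, against 4.005, 3.62 and 3.58 in control diet replicates 1, 9 and 11. The diets nearly separated, by 0.47 ± 0.16 (SE, limma adjusted p = 0.89 without the level filter).

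Of the genes for serotonin synthesis, uptake and breakdown, 4 of the 8 on the array were tested, and 0 passed the adjusted threshold or an unadjusted p of 0.05 on their best probe set. Maoa and Maob, which encode the monoamine oxidases, differed by 0.060 ± 0.23 and 0.056 ± 0.097 (SE), and the decarboxylase gene Ddc by -0.039 ± 0.097 (SE). Slc29a4, which encodes a low-affinity monoamine transporter of the plasma membrane, was at 5.68 to 5.87 in zinc diet mice and 5.82 to 6.23 in controls, a log2 change of -0.23 ± 0.12 (SE, limma adjusted p = 0.82). On its second probe set, 1424900_at, the zinc diet values were below every control value, at 4.27 to 4.63 against 4.63 to 4.86. The change there was -0.30 ± 0.11 (SE, limma unadjusted p = 0.036, adjusted p = 0.76).

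Genes for the G proteins and effectors that serotonin receptors share with other receptors gave a median log2 change of 0.033 over 20 tested genes. In the zinc diet mice 12 were higher and 8 lower. Their mean separated the diets, at 10.30 to 10.35 in zinc diet mice and 10.26 to 10.28 in controls (exact permutation p = 0.1, two-sided). Adcy5, Plcb1 and Plcb4, 3 of the 20, were higher in every zinc diet mouse, and 0 were lower in every one. Of all probe sets tested, 6.66% were higher without overlap. On the brightest probe set of each gene, Adcy5 was the 1 member of the 20 under an unadjusted p of 0.05. Of all probe sets tested 6.38% were, and 0 of the 20 passed the adjusted threshold. Adcy5, the main adenylyl cyclase of striatal neurons, stood at 10.40, 10.66 and 10.52 in zinc diet replicates 3, 7 and 10, against 10.11, 10.12 and 10.17 in control diet replicates 1, 9 and 11, a change of 0.39 ± 0.088 (SE, limma adjusted p = 0.49). Gnal, the stimulatory G protein gene of striatal neurons, differed by 0.50 ± 0.29 (SE) with overlapping diets, and by 0.30 ± 0.071 (SE, unadjusted p = 0.0040, limma adjusted p = 0.52) without overlap on its other tested probe set. The phospholipase C gene Plcb4 differed by 0.26 ± 0.12 (SE). The inhibitory G protein genes Gnai1, Gnai2, Gnai3 and Gnao1 gave -0.024, -0.15, 0.014 and -0.036, all with overlapping diets.

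Genes whose products bind or process the receptors or control their transcription gave a median of -0.033 over 11 genes, with 4 higher and 7 lower. At an unadjusted p under 0.05 there were 2, against 6.38% of all probe sets tested, and 0 passed the adjusted threshold. In every zinc diet mouse 2 of the 11 were higher and 2 lower, and 12% of all probe sets tested did not overlap. Adarb1, which encodes an adenosine deaminase that edits Htr2c RNA, was higher in every zinc diet mouse, at 6.61 to 6.68 against 6.34 to 6.53 in control mice (0.23 ± 0.083 SE, limma adjusted p = 0.74). Adar, whose product also edits Htr2c RNA, differed by -0.033, -0.15 and -0.45 on its 3 tested probe sets, with overlapping diets on each and an unadjusted p of 0.036 on the last. Ric3, a chaperone gene for 5-HT3 and nicotinic receptor channels, was higher by 0.18 ± 0.070 (SE), also without overlap. Deaf1, a transcription factor known to act on the Htr1a promoter, was lower in every zinc diet mouse by -0.17 ± 0.073 (SE, limma adjusted p = 0.78). Cc2d1b was also lower in every zinc diet mouse, by -0.30 ± 0.14 (SE, limma adjusted p = 0.80). S100a10, which encodes the 5-HT1B partner p11, differed by 0.12 ± 0.11 (SE) with overlapping diets.

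**Figure D4:**
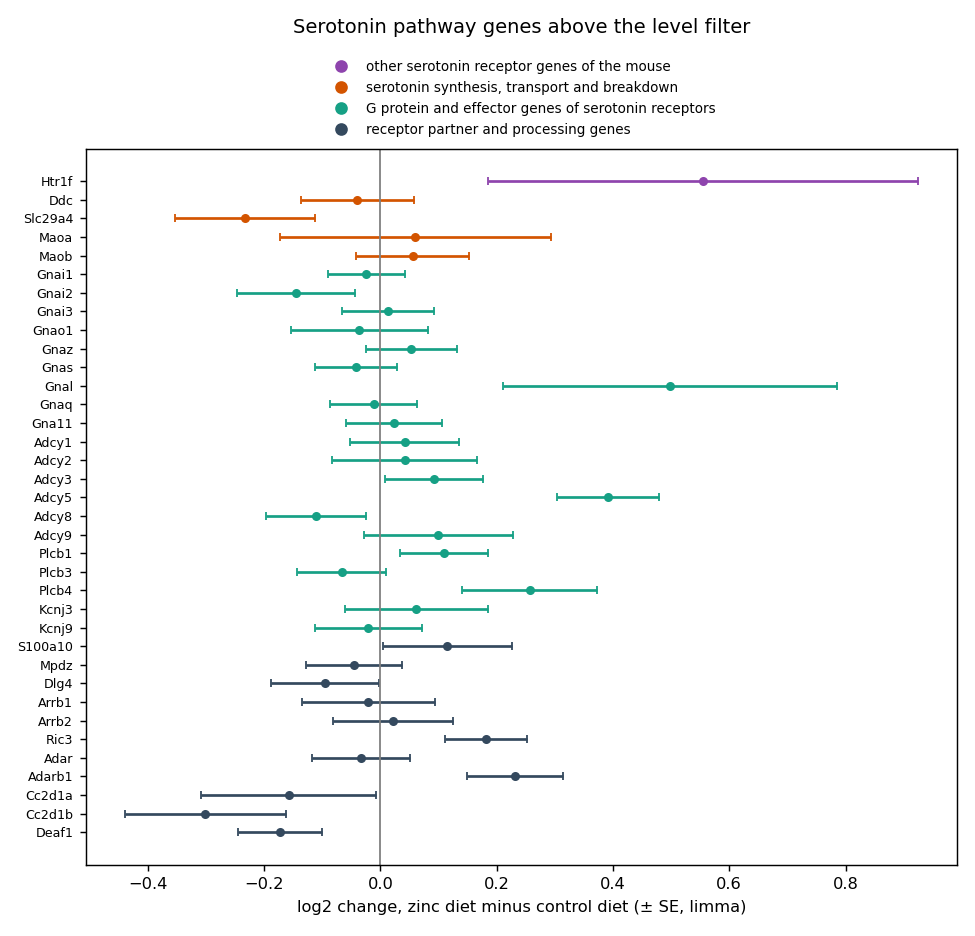
Log2 change, zinc diet minus control diet (horizontal axis), with its standard error from limma (n = 3 mice per diet), for the best probe set of each serotonin pathway gene above the level filter, coloured by list. Most genes lie within 0.2 of 0, Adcy5 lies at 0.39, and the widest error bars are those of Htr1f and Gnal.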

How the data were processed

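RNA was hybridised to Affymetrix Mouse430_2 arrays (6 mice, 1 array each, 500 ng of labelled RNA input, per the labels' protocols). The values are log2 probe set levels as the authors deposited them. Per the submitters' processing notes, the tools were R 2.15.1 and GCRMA 2.28.0, and what each did is not stated; the values themselves show a log2 scale, and centring and other steps are not given in the sources used here. As a rule GCRMA values are least linear at low levels. Scanner files were not used here, so there was no detection call, and the number of arrays limits the precision.

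Of 45101 probe sets, 64 controls were left out. The platform annotation gave 1 symbol for 34958 probe sets, several for 932 and none for 9211; Entrez numbers matched the RefSeq table of GRCm38.p6, used for names only, for 34754, with 0 symbols changed. Probe sets with a mean log2 level of at least 4 (22877) were compared with limma 3.58.1, run in R 4.3.3 (eBayes after lmFit with diet as the sole factor, two-sided, Benjamini-Hochberg over all tested); those under it come from the same fit without the filter. SEs are limma's moderated errors. The fit was tested on simulated data. For a list gene, the brightest of its probe sets on average was used. All members and all genes of the receptor and synthesis lists were eligible to be named, with the 3 smallest p of the effector and partner lists and up to 2 genes of each marker list; further genes and second probe sets were picked with their values in view. The members and lists were chosen with earlier results of these data known.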

Additional observations from a re-analysis of the deposited data

How the results depend on the processing

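No receptor probe set passed the adjusted threshold under any alternative: leaving out each mouse, array weights, trend and robust eBayes, averaging a gene's probe sets, values under 4 set to 4, median centring, quantile normalization, no level filter, or a filter at 6. The adjusted p of Htr1b ranged from 0.13 to 0.86. No paired analysis was possible because the diets share no replicate numbers.

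The receptor count at an unadjusted p under 0.05 was 1 with a mean of at least 6 and with gene means, and 1 to 4 when a mouse was left out. The count with all zinc diet mice above was 1 with a mean of at least 6, and the count with all below was 0 to 1 when a mouse was left out. The number above the level line stayed at 7, or 6 at a line of 6. Over all probe sets, 2 passed the adjusted threshold with a mean of at least 6, 3 with trend and robust settings and 2 with gene means. At an unadjusted p under 0.05 there were 2429 with no filter, 2345 with array weights, 846 with gene means, and 852 to 2249 when a mouse was left out. Non-overlapping probe sets numbered 4884 with no filter, 1401 with gene means, and 4048 to 6621 when a mouse was left out. Fewer samples or fewer features account for part of these counts by construction.

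Some small differences changed sign. With array weights Htr1a was at -0.012, Htr3a at -0.0094, Htr7 1422235_at at -0.043 and Maob at -0.017. Htr2c was at -0.0036 with gene means, and Htr5a 1422207_at at 0.0040 under quantile normalization and 0.0042 under median centring. Slc17a6 was at -0.0067 under quantile normalization. When a mouse was left out the ranges were -0.038 to 0.069 for Htr1b 1422288_at, -0.0046 to 0.078 for Htr2c 1435513_at, -0.14 to 0.073 for Htr2c 1450477_at, -0.11 to 0.14 for Htr3a, -0.14 to 0.051 for Htr4 1427654_a_at, -0.11 to 0.066 for Htr5a 1422207_at and -0.068 to 0.058 for Htr7 1422235_at. They were -0.18 to 0.0090 for Htr3b, -0.18 to 0.059 for Htr5b, -0.13 to 0.012 for Ddc, -0.030 to 0.055 for Slc6a4, -0.19 to 0.20 for Maoa, -0.028 to 0.12 for Maob, -0.17 to 0.018 for Slc17a7, -0.11 to 0.10 for Slc17a6, -0.40 to 2.89 for Avp and -0.092 to 0.020 for Adar. The cause was not tested. In a comparison added after the data were seen, the choroid plexus difference was -0.075 without control diet replicate 9, against -1.003 with all mice.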
